A study of Oncorhynchus mykiss with 525 samples.

Results

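The comparison described here set wells of RTgill-W1 cells exposed to the chemical coded car, at its 3 highest concentrations, against wells that received the solvent DMSO. The members were the wells labelled car at conc 1, conc 2 and conc 3 in the count table of car, with the DMSO wells of the same table as reference, and wells with a total under 24095 counts were to be left out. None fell below that total, so 9 car wells and 15 DMSO wells entered, of 525 samples in the series.

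RTgill-W1 is an epithelial cell line derived from the gill of rainbow trout, Oncorhynchus mykiss. The gill epithelium is the surface through which a fish takes up oxygen, exchanges ions and meets chemicals dissolved in water, and the line is used in vitro in place of fish in acute toxicity tests. The stated purpose of the series is to derive transcriptomic points of departure, which are the concentrations at which gene expression begins to change.

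The car wells were exposed for 24 h, in 3-fold dilution steps over 8 concentrations, of which conc 1 is the highest. The labels give 6.24 for conc 1, 2.08 for conc 2 and 0.69 for conc 3, without a unit, and they do not say what car stands for. The same table holds car at conc 4 to conc 8, with labelled values of 0.23 to 0.00. The label of conc 8 is rounded, and the column header gives 0.00285. Of these wells, those at conc 6 to conc 8 served as a second reference. The DMSO wells were the 15 of the second batch of the experiment, 5 on each of 3 plates. The design text names both DMSO and water as carriers of the chemicals, and no label gives the carrier of car, so DMSO may not be its own vehicle. Cells, medium and exposure format were the same in all of these wells. Each plate was another passage of the 1 cell line, and each concentration of car had 1 well on each plate, so n is 3 passages at most, and wells of a plate share their culture.

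Every well received its own code before up to 24 wells were pooled into a library for sequencing. On each of the 3 plates the car wells shared a library with wells of the chemicals smet and ampa, and the DMSO wells lay in another library. Car against DMSO and library against library therefore cannot be told apart. Car conc 1 to conc 8 occupied rows H to A of plate column 8 on every plate, so concentration, plate row and well code cannot be told apart either. By the labels all DMSO wells lay in rows A to E. Car wells at conc 1 to conc 3, in rows H to F, thus shared no plate row with their DMSO reference. The tables give 44260 Ensembl gene IDs, and 0 of them could be paired with a gene name, so genes are given by ID with no role, gene lists could not be counted, and the markers of gill epithelium could not be checked.

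Total counts were lower in car than in DMSO wells on plate 1, where the 3 car wells at conc 1 to conc 3 had 66218 to 96057 counts and the 5 DMSO wells 197767 to 383215. On plate 2 these car wells had 292925 to 488237 counts and the DMSO wells 158258 to 506267, and on plate 3 the totals were 161046 to 259295 in car wells and 240944 to 313730 in DMSO wells. Other wells of the car library were low on plate 1 too. There, ampa wells at conc 1 to conc 3 had 89146 to 96433 counts, and car wells at conc 6 to conc 8 had 42821 to 103424. Fewer cells in a well, less RNA per cell and the depth of a library cannot be told apart in such totals. Levels are given as CPM, a gene's count divided by its well's total and scaled to 1000000, and fold changes are log2 values from edgeR's quasi-likelihood test with TMM scaling and the plate as block. A gene was called at a Benjamini-Hochberg false discovery rate (FDR) below 0.05 over all genes tested.

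Over conc 1 to conc 3 together, 20 of 4535 genes tested differed from DMSO, which is 0.441% of them. Only 4 were higher in car, by 0.64 to 1.12 on the log2 scale, and 16 were lower, with log2 fold changes from -1.17 to -0.33. The 4 most counted gene IDs of the wells were all among the lower ones. DESeq2 called 24 genes in the same comparison, among them all 20. The median over all genes tested was -0.071 under TMM scaling. Scaling by the total count, an alternative chosen after seeing the data, moved that median to 0.195 and the calls to 145 higher and 8 lower. All 4 higher genes and 8 of the 16 lower genes were called in the same direction under both scalings. Without the plate as block 11 genes were called, and 9 were called when the wells of each plate were summed to 1 value per passage.

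The number of called genes did not climb steadily with concentration. At conc 8, the lowest, 11 genes differed from DMSO (0.243% of those tested), and at conc 7 there were 17 (0.375%), of which 16 were lower. At conc 6 the count was 5 (0.110%), and at conc 5 it was 8 (0.176%). At conc 4 edgeR called 0 genes (0%), with 212 of the 4535 tested at an unadjusted p under 0.05, and DESeq2 called 11. Where no gene differs, a share of about 0.05 of the genes tested is expected under that threshold. At conc 3, 10 genes were called (0.221%), all lower than in DMSO. At conc 2 the 4 calls (0.0882%) were all lower and were the 4 most counted IDs. At conc 1, 19 genes were called (0.419%), of which 9 were higher and 10 lower. With scaling by the total count the split of higher and lower genes was 11 and 2 at conc 8, 138 and 9 at conc 7, 14 and 1 at conc 6, 26 and 6 at conc 5 and 3 and 0 at conc 4. It was 22 higher and 6 lower at conc 3, 15 higher and 2 lower at conc 2, and 64 higher and 5 lower at conc 1. Without the plate as block edgeR called 1, 0, 0, 2 and 0 genes from conc 8 to conc 4.

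**Figure D1:**
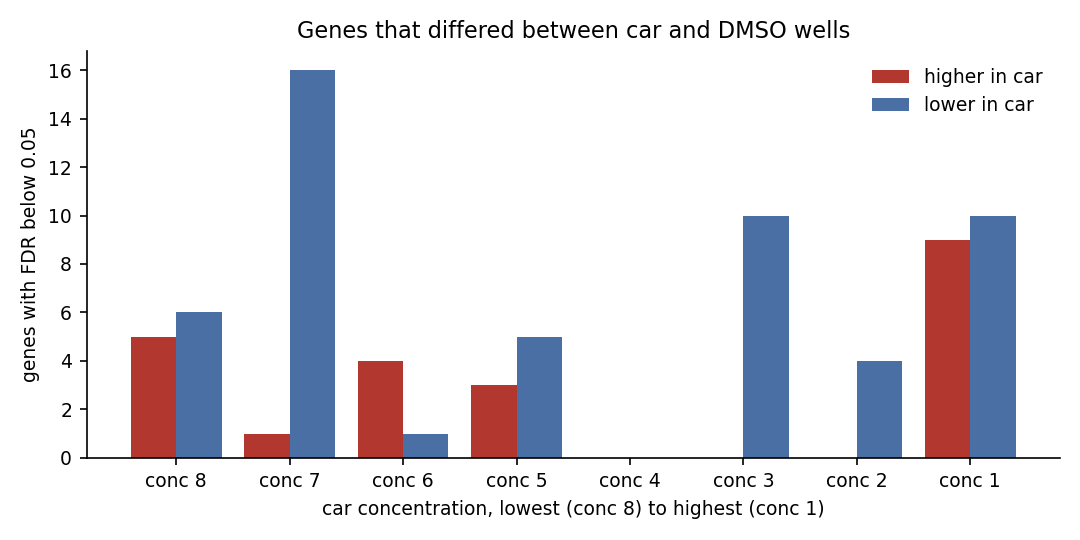
Number of genes with an FDR below 0.05 (y axis) at each concentration of car against the 15 DMSO wells, from the lowest (conc 8) to the highest (conc 1), with 3 car wells each; red bars count genes higher in car and blue bars genes lower in car. With the TMM scaling shown, conc 1 had the most higher genes, 9, and conc 7 the most lower genes, 16, whereas scaling by the total count gave the most higher genes, 138, at conc 7.

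The 3 lowest concentrations together, compared with DMSO in the same way, gave 9 called genes (0.198% of those tested), of which 1 was higher and 8 lower, or 105 higher and 7 lower with scaling by the total count. This comparison shares its DMSO wells with that of conc 1 to conc 3, and the 2 were set side by side only. The 20 genes called over conc 1 to conc 3 had a median log2 fold change of -0.53 in the comparison that chose them, and of -0.32 over conc 6 to conc 8. In conc 1 to conc 3 against conc 6 to conc 8, the same 20 genes had a median of -0.02, with 9 of them positive. These medians mix genes of both directions. The medians of the absolute log2 fold change were 0.65, 0.36 and 0.24 in the same order of comparisons. Within the car libraries, conc 1 to conc 3 against conc 6 to conc 8 gave 1 called gene, ENSOMYG00000013240, which is 0.0221% of those tested. There 276 of the 4535 genes tested, the called one included, had an unadjusted p under 0.05, and DESeq2 called 3. The slope over all 8 car concentrations, fitted without DMSO, was called for 2 of 2733 genes (0.0732%), ENSOMYG00000013240 with a rise and ENSOMYG00000014953 with a fall, and DESeq2 called 0. At an unadjusted p under 0.05 edgeR listed 139 of the 2733 genes for the slope, near the share of 0.05 expected where no gene differs. These 2 IDs were singled out after their values were seen.

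ENSOMYG00000013240 was called higher than in DMSO at conc 1, but not at conc 2 or conc 3. It was also the 1 gene called between conc 1 to conc 3 and conc 6 to conc 8. At conc 1 it had 335, 210 and 552 CPM on plates 1, 2 and 3, against 37.9 to 172 CPM with a median of 76.8 in the 15 DMSO wells. The conc 1 well lay above every DMSO well on all 3 plates, and it was the highest of all 22 or 23 kept wells of its library on each plate. These levels rest on 29, 79 and 94 counts. The log2 fold change at conc 1 was 1.85 ± 0.21 (SE, n = 3 car and 15 DMSO wells; edgeR FDR 1.42e-09).

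Below conc 1 the gene's level fell back within 2 dilution steps. At conc 3 it had 75.5, 78.5 and 86.9 CPM on plates 1, 2 and 3, and at conc 2 it had 260, 61.4 and 262 CPM. The conc 2 wells of plates 1 and 3 thus stood above all DMSO wells, and the conc 2 well of plate 2 lay within them. Over the 18 wells of conc 8 to conc 3 it ranged from 42.2 to 142 CPM, inside the DMSO range over all 3 plates. Within plates some of these wells lay outside the DMSO wells. Conc 4 on plate 1 (142 CPM) and conc 8 and conc 3 on plate 2 (112 and 78.5 CPM) stood above all DMSO wells of their plate. Conc 7 on plate 3 (63.0 CPM) lay below those of its plate. Its log2 fold change against DMSO was -0.16 ± 0.30 at conc 3, which was not called (edgeR FDR 0.981). At conc 2 it was 0.87 ± 0.24 and was not called either (edgeR FDR 0.17).

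The rise of ENSOMYG00000013240 with concentration had a slope of 0.23 ± 0.04 log2 units per 3-fold step (edgeR FDR 0.00128). It was not called without plate 1 (0.22, edgeR FDR 0.0643), without plate 3 (0.16, edgeR FDR 0.905) or by DESeq2 (0.23, DESeq2 FDR 0.216). The slope rested on conc 1: without those 3 wells, a choice made after seeing the data, it was 0.09 (edgeR FDR 0.991). Conc 1 to conc 3 against conc 6 to conc 8 gave a log2 fold change of 1.04 ± 0.21 (edgeR FDR 0.0158). That call was lost without plate 1 (1.03, FDR 0.203), without plate 3 (0.74, FDR 0.787) and without the plate as block (1.11, FDR 0.0765). It was also lost with no low-count filter (1.00, FDR 0.334) and with all wells thinned to at most 66218 counts (0.99, FDR 0.428). In each case in which that call was lost, the call at conc 1 held, with log2 fold changes of 1.30 to 1.88.

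Some wells of the other chemicals in these libraries also held this gene above the DMSO wells of their plate. At conc 2 of smet, in the same plate row as conc 2 of car and in the neighbouring column, it had 240, 58.3 and 198 CPM on plates 1, 2 and 3. These were high on plates 1 and 3 and low on plate 2, as were the car wells at conc 2. The smet wells at conc 1, in the row of car conc 1, all fell under the total count of the rule and were left out. At conc 7 of ampa it had 184, 81.7 and 131 CPM on plates 1, 2 and 3, against 64.1 to 110, 37.9 to 65.2 and 76.8 to 172 CPM in the DMSO wells of these plates, so it was above DMSO on plates 1 and 2 only. At conc 1 to conc 3 of ampa the gene ranged from 11.2 to 122 CPM with a median of 33.7. The part of the row, of the library or of the neighbouring well in the car values was not tested.

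**Figure D2:**
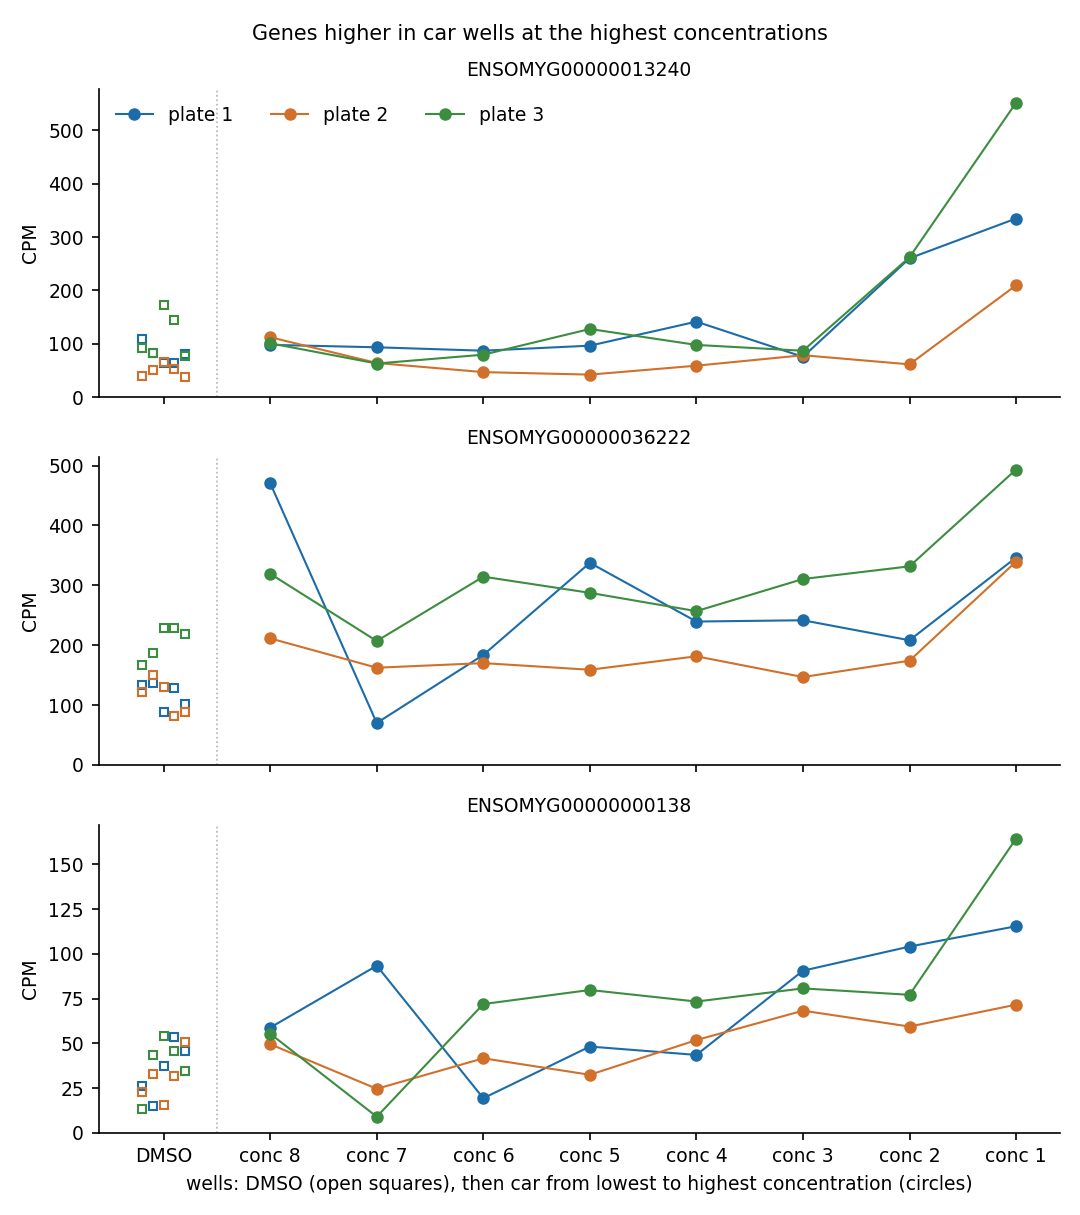
CPM (y axis) of ENSOMYG00000013240, ENSOMYG00000036222 and ENSOMYG00000000138 in each DMSO well (open squares) and each car well (circles), with car concentrations from lowest to highest along the x axis and 1 colour per plate; lines join car wells of a plate. All 3 genes have their highest conc 1 well on plate 3, at 552, 493 and 164 CPM, and ENSOMYG00000036222 is also high at conc 8.

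By the rule for named genes, the first higher ID was ENSOMYG00000036222. Over conc 1 to conc 3 it averaged 288 ± 107 CPM in car wells, against 146 ± 50.3 CPM in DMSO wells (SD, n = 9 and 15), with a log2 fold change of 0.66 ± 0.13 (SE; edgeR FDR 0.00117). On plate 1 it had 242, 208 and 346 CPM at conc 3, conc 2 and conc 1, against 88.2 to 137 CPM in DMSO wells. On plate 2 the car wells had 147, 174 and 340 CPM, against 81.8 to 150 CPM in DMSO wells, so that conc 3 overlapped with DMSO there. On plate 3 they had 310, 332 and 493 CPM, against 167 to 229 CPM in DMSO wells.

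The level of ENSOMYG00000036222 was not ordered by concentration. It averaged 334 ± 130 CPM at conc 8 and 393 ± 86.8 CPM at conc 1 (SD, n = 3 each), and both concentrations were called against DMSO (edgeR FDR 0.0022 at conc 8 and 4.54e-06 at conc 1). At conc 7 it averaged 147 ± 69.8 CPM. Conc 1 to conc 3 against conc 6 to conc 8 gave 0.28 ± 0.15 and no call (edgeR FDR 0.853). Wells of other chemicals in the same libraries also had levels above the DMSO mean of 146 CPM, with 277 ± 98.1 CPM in smet wells at conc 4 to conc 8 (SD, n = 15) and 228 ± 80.3 CPM in all ampa wells (SD, n = 24). The part of the library in this difference was not tested. Without plate 3 the call against DMSO was lost (0.61, FDR 0.111), as it was with no low-count filter (0.56, FDR 0.209). With all wells thinned to at most 66218 counts it was lost too (0.54, FDR 0.327).

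The second higher ID, ENSOMYG00000000138, was a gene of low counts whose car wells at conc 1 to conc 3 all lay above the DMSO wells. It averaged 92.4 ± 32.3 CPM in these car wells, against 34.9 ± 13.9 CPM in DMSO wells (SD, n = 9 and 15). The lowest of the 9 car wells had 59.4 CPM and the highest of the 15 DMSO wells had 54.2 CPM. The log2 fold change was 1.12 ± 0.22 (SE; edgeR FDR 0.00117), on 6 to 29 counts per car well. At conc 1 it had 115, 71.6 and 164 CPM on plates 1, 2 and 3, in the highest kept well of its library on every plate. The next highest well was close, at 114 CPM on plate 1, 69.9 CPM on plate 2 and 142 CPM on plate 3. Other chemicals in these libraries also averaged above DMSO. Smet wells at conc 4 to conc 8 had 52.62 ± 29.82 CPM (SD, n = 15) and all ampa wells 56.35 ± 30.58 CPM (SD, n = 24). The 3 smet wells at conc 2 had 56.51 to 80.04 CPM. The part of the library in this difference was not tested.

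Averages of ENSOMYG00000000138 over the 3 plates were 54.6, 42.3, 44.3, 53.5, 56.3, 79.9, 80.2 and 117 CPM from conc 8 to conc 1. The 3 highest concentrations had the 3 highest averages, which the rule favours, because it chose the gene as higher at each of these concentrations. Neither its slope over concentrations (0.16 ± 0.05, edgeR FDR 0.225) nor conc 1 to conc 3 against conc 6 to conc 8 (1.00 ± 0.27, edgeR FDR 0.258) passed the threshold. Its call against DMSO was lost without plate 3 (1.02, FDR 0.0954) and with no low-count filter (1.02, FDR 0.0772). Of the 4 genes called higher over conc 1 to conc 3, 0 were called without plate 3 and 0 with no low-count filter, while 12 and 14 of the 16 lower ones were.

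The 9 genes called higher at conc 1 had log2 fold changes there of 1.06 to 2.62, with a median of 1.44. At conc 2 and conc 3 edgeR called 0 genes higher than in DMSO, and DESeq2 called 7 and 4. At conc 2 and conc 3, 286 and 300 of the 4535 genes tested had an unadjusted p under 0.05 in either direction. ENSOMYG00000013240 was the only 1 of the 9 called in the slope over concentrations. The 10 genes called lower at conc 1 had log2 fold changes of -1.64 to -0.56.

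Among the lower genes, the rule named ENSOMYG00000002129 and ENSOMYG00000002243, which are 2 of the 4 most counted IDs. Their counts were almost the same in every well, so reads of a shared or near-identical sequence may have been given to both, and they are described as a pair of uncertain separation. ENSOMYG00000002129 averaged 51460 ± 5386 CPM in car wells at conc 1 to conc 3, against 63670 ± 8696 CPM in DMSO wells (SD, n = 9 and 15). ENSOMYG00000002243 averaged 51620 ± 5092 CPM in these car wells and 63910 ± 8777 CPM in DMSO wells. Each had a log2 fold change of -0.56 ± 0.06 (SE, edgeR FDR 1.35e-11), in a fit over single wells. With the wells of each plate summed to 1 value per passage, each had -0.53 (edgeR FDR 0.0281). Without the plate as block each had -0.58 (edgeR FDR 0.0182).

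For ENSOMYG00000002129, no car well at conc 1 to conc 3 overlapped with a DMSO well of its plate. On plate 1 its levels at conc 3, conc 2 and conc 1 were 52946, 53718 and 51279 CPM, against 61299 to 70955 CPM in DMSO wells. On plate 2 they were 55827, 57710 and 54449 CPM, against 65002 to 80560 CPM in DMSO wells. On plate 3 they were 46776, 50641 and 39838 CPM, against 51352 to 55767 CPM in DMSO wells.

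Both IDs were lower than in DMSO at the lowest concentrations of car too. For ENSOMYG00000002129, the log2 fold change over conc 6 to conc 8 was -0.53 ± 0.06 (edgeR FDR 1.04e-10), and conc 1 to conc 3 against conc 6 to conc 8 gave -0.03 ± 0.07 (edgeR FDR 0.971). Its deepest value was at conc 7, with -0.84 ± 0.09 (edgeR FDR 8.93e-11). Other chemicals in these libraries also averaged below the DMSO mean of 63670 CPM for this ID. Smet wells at conc 4 to conc 8 had 54460 ± 4692 CPM (SD, n = 15) and all ampa wells 56110 ± 5802 CPM (SD, n = 24). Ampa at conc 1 to conc 3 against DMSO gave -0.24 ± 0.07 and no call (edgeR FDR 0.129). The part of the library in this difference was not tested. The 4 most counted IDs together, which include a second pair, held 35.8% to 49.2% of the counts in car wells at conc 1 to conc 3, 32.9% to 50.6% at conc 6 to conc 8 and 41.6% to 59.5% in DMSO wells. In smet wells at conc 4 to conc 8 they held 36.7% to 50.4%.

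Within plates, the share of the 4 IDs in car wells at conc 1 to conc 3 lay below that in all DMSO wells. It was 36.5% to 37.7% in car wells and 43.9% to 48.0% in DMSO wells on plate 1. On plate 2 it was 45.9% to 49.2% in car wells and 51.0% to 59.5% in DMSO wells, and on plate 3 it was 35.8% to 39.9% in car wells and 41.6% to 45.3% in DMSO wells. With TMM scaling the 4 IDs had log2 fold changes of -0.56 to -0.49 over conc 1 to conc 3, and with scaling by the total count -0.29 to -0.22, all called lower under both. TMM factors ran from 0.86 to 1.29 in these car wells and from 0.65 to 1.02 in DMSO wells.

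**Figure D3:**
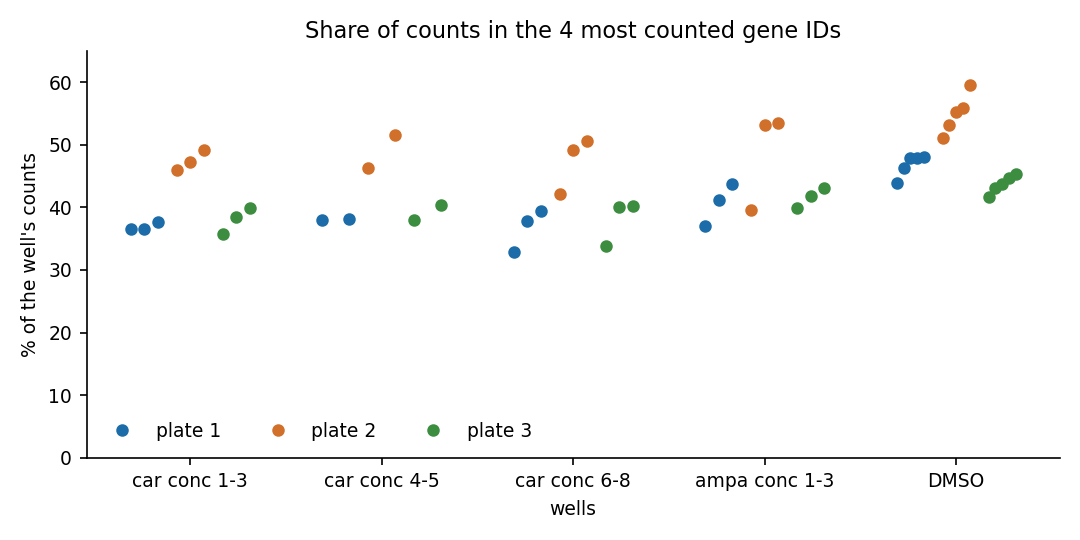
Share of a well's counts held by the 4 most counted gene IDs (y axis, percent), for car wells in 3 ranges of concentration, ampa wells at conc 1 to conc 3 and DMSO wells, with 1 point per well and 1 colour per plate. On each plate the DMSO wells lie above the car wells at conc 1 to conc 3, and the car wells at conc 6 to conc 8 lie as low as these.

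The chemical ampa, in the same libraries and plate rows as car, gave a comparison within the library. Its labelled concentrations differ from those of car, so the 2 were not matched for dose. Against the same DMSO wells, ampa at conc 1 to conc 3 gave 12 called genes of 4232 tested (0.284%), of which 6 were higher and 6 lower, or 11 higher and 4 lower with scaling by the total count, and DESeq2 called 2. Car at conc 1 to conc 3 against ampa at conc 1 to conc 3 gave 20 called genes of 4844 (0.413%), of which 2 were higher in car and 18 lower. With scaling by the total count the split was 13 higher and 8 lower. ENSOMYG00000013240 was 1 of the 2 higher in car, with a log2 fold change of 1.74 ± 0.22 (edgeR FDR 1.18e-09). Against DMSO this gene was higher in car at conc 1 to conc 3, by 0.86 ± 0.17 (edgeR FDR 0.00153). In ampa at conc 1 to conc 3 it was called lower than in DMSO, with -0.88 ± 0.21 (edgeR FDR 0.0228). The value of 1.74 is thus not the size of a rise in car alone.

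With TMM scaling all 4 most counted IDs, ENSOMYG00000002129 and ENSOMYG00000002243 among them, were also called lower in car than in ampa. Their log2 fold changes were -0.32 to -0.19. The log2 fold change was -0.32 ± 0.05 for ENSOMYG00000002129 (edgeR FDR 5.9e-06). It averaged 51460 ± 5386 CPM in car wells and 58510 ± 4584 CPM in ampa wells (SD, n = 9 each). With scaling by the total count, 2 of the 4 most counted IDs were called lower in car than in ampa. ENSOMYG00000000138 and ENSOMYG00000036222 were higher in car than in ampa by 0.65 ± 0.25 and 0.45 ± 0.14, and neither was called (edgeR FDR 0.513 and 0.242). The share of the 4 most counted IDs was 35.8% to 49.2% in car wells at conc 1 to conc 3 and 37.0% to 53.4% in ampa wells at conc 1 to conc 3, so these ranges overlapped.

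The smallest p in car against ampa belonged to ENSOMYG00000009413, which was singled out after its values were seen. Its log2 fold change was -1.25 ± 0.09 (edgeR FDR 1.11e-26). This SE leaves out spread between concentrations, each of which was its own group in the fit. ENSOMYG00000009413 was called lower than in DMSO too, with -1.17 ± 0.21 over conc 1 to conc 3 (edgeR FDR 0.000159). Within plates the mean log2 CPM of these car wells minus that of DMSO was -1.58, -0.79 and -0.28 on plates 1, 2 and 3. On plate 3 the car wells had 857 to 1039 CPM. The DMSO wells there had 523 to 986 CPM, apart from well E03 at 4416 CPM. Over conc 6 to conc 8 the gene had the same log2 fold change against DMSO, -1.17 ± 0.21 (edgeR FDR 0.000172). Conc 1 to conc 3 against conc 6 to conc 8 gave 0.00 ± 0.23 and no call (edgeR FDR 0.999). In car wells at conc 1 to conc 3 it had 529 to 1039 CPM, against 886 to 8851 CPM in ampa wells at conc 1 to conc 3 and 523 to 4416 CPM in DMSO wells. The highest ampa wells were those at position F09, with ampa conc 3, which had 4583, 8851 and 4207 CPM on plates 1, 2 and 3. The ampa wells at conc 1 and conc 2 had 886 to 1208 CPM.

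The same 5 well positions were the highest for ENSOMYG00000009413 in the car libraries on all 3 plates. Besides F09 these were C07 with smet conc 6, A09 with ampa conc 8, B09 with ampa conc 7 and E08 with car conc 4. They had 1746 to 4583 CPM on plate 1, against 529 to 1261 CPM in the other 17 kept wells. On plate 2 they had 1825 to 8851 CPM, against 564 to 1333 CPM in the other 18, and on plate 3 they had 1902 to 4207 CPM, against 603 to 1240 CPM in the other 18. The 5 positions hold 3 chemicals and follow no order of concentration.

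ENSOMYG00000014953, the gene called with a falling slope (-0.17 ± 0.04 log2 units per step, edgeR FDR 0.0483), was also high at 1 position. In well A08, which held car conc 8, it had 274, 251 and 290 CPM on plates 1, 2 and 3. All other kept wells of these libraries had 33.7 to 135, 49.8 to 122 and 56.2 to 151 CPM on the same plates. At conc 8 its log2 fold change against DMSO was 1.53 ± 0.20 (edgeR FDR 7.74e-08), while over conc 1 to conc 3 it was -0.02 ± 0.17 (edgeR FDR 0.993). Without the conc 8 wells its slope was 0.03 (edgeR FDR 0.991). The slope was also not called without the plate as block (edgeR FDR 0.225), by DESeq2 (DESeq2 FDR 0.263) or with no low-count filter (edgeR FDR 0.0638). Nor was it called without plate 1, 2 or 3 (edgeR FDR 0.475, 0.0677 and 0.905) or with scaling by the total count (edgeR FDR 0.0815). Without conc 1 it was called (-0.21, edgeR FDR 0.0341). Whether well code, plate position or concentration sets the level in A08 was not tested, and the design keeps them together.

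**Figure D4:**
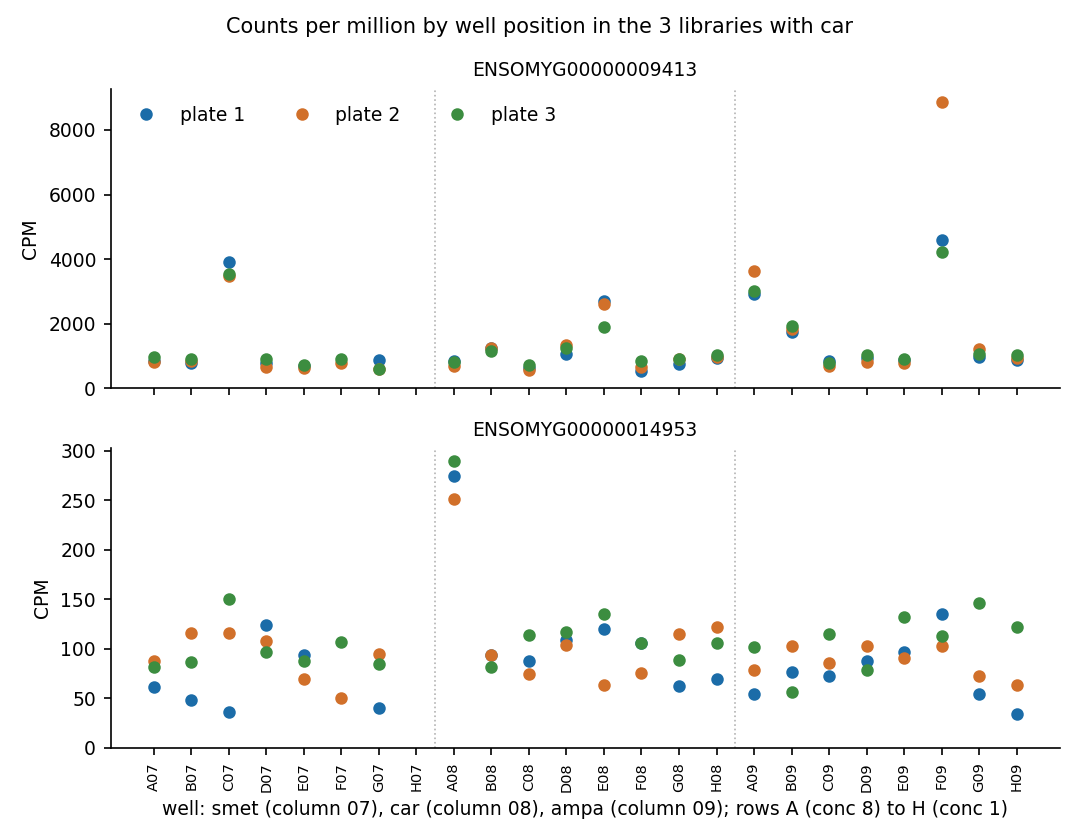
CPM (y axis) of ENSOMYG00000009413 and ENSOMYG00000014953 in each kept well of the 3 libraries that hold car, ordered along the x axis by plate column (smet, car, ampa) and row, with 1 colour per plate; left-out smet wells have no point. The same positions stand out on all 3 plates, at 1746 to 8851 CPM for ENSOMYG00000009413 and at 251 to 290 CPM in A08 for ENSOMYG00000014953.

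Among car wells and among ampa wells, the lowest total lay at the same position on every plate. Position and concentration cannot be told apart in these totals. The car well with the lowest total was B08, at conc 7, on every plate, with 42821, 203227 and 111130 counts on plates 1, 2 and 3, which is 46.6%, 47.9% and 42.9% of the median of the other car wells. The ampa well with the lowest total was D09 on every plate. Conc 7 was also the concentration with the most lower genes against DMSO under TMM scaling, 16, against 9 under scaling by the total count, which called 138 higher. It had the lowest share of the 4 most counted IDs, 32.9% to 42.1%. When all wells were thinned to at most 66218 counts, conc 7 gave 6 calls, 1 higher and 5 lower, in place of 17, with 13 of the 17 genes still tested. Thinned in this way, the 9 wells at conc 1 to conc 3 still differed from DMSO in 10 of 1022 genes, all of them lower in car. ENSOMYG00000013240 was still called at conc 1, with 1.30 (edgeR FDR 0.011).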

How the data were processed

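The deposited values are whole counts for each Ensembl gene ID in each well, and nothing in them points to a normalization by the authors. Libraries were made with QIAseq UPXome kits, per the labels' protocols. Aligner, counter and annotation were not given in the sources used here. Column names hold library and well codes, which gave each column its sample. Near-identical genes can share reads.

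CPM were computed from these counts and each well's total. Tests used edgeR 4.0.16 in R 4.3.3 (quasi-likelihood, TMM, filterByExpr, two-sided), with 1 fit over the 24 car and 15 DMSO wells, the plate as block and Benjamini-Hochberg adjustment at 0.05. Separate fits held car with ampa, ampa with DMSO, and car alone for the slope over steps. Each concentration was its own group in the fits of groups, and a range of concentrations was tested as the mean of its groups. The SE is the absolute log2 fold change divided by the root of the F statistic. For such a mean it leaves out the spread between concentrations. The rule for named genes took called genes with the same sign at each concentration and on each plate and a mean log2 CPM (prior count 2) of 1 or more, ranked by p, the first 2 IDs in each direction; 19 of 20 met it. IDs that the rule did not give are stated as chosen after seeing values. Because 0 IDs matched the reference name table, gene and marker lists were not used, and no sequences are shown.

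The plate number marks a passage, per the labels, so it pairs wells: after removal of group means, car and DMSO wells of the same plate had a median correlation of 0.098 across 1377 genes, against -0.045 for wells of different plates. Wells of a plate share a passage, and the plate as block removes shifts common to a passage. The p-values thus rest on spread between single wells, and do not measure the spread of a difference over the 3 passages alone. No 2 wells of a group agreed within sampling noise, with a smallest chi-square per degree of freedom of 1.82 in 129 pairs. Totals of 42821 to 605687 counts in car wells limit precision for low genes. Alternatives were no block, DESeq2 1.42.0, no filter, each plate left out, all wells kept, removal of the 4 most counted IDs, thinning, a fit of fewer groups, summed wells and, added after seeing the data, scaling by the total count and slopes without conc 1 or conc 8. The comparison, the groups and the lists were chosen with earlier results of these data known. Scripts were tested on simulated data. Figures were made with Python 3.11.15 and matplotlib 3.10.9.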

Additional observations from a re-analysis of the deposited data

Results flagged for a closer look

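Car and ampa at conc 1 to conc 3, tested directly against each other in the same libraries, differed in 20 genes, of which 2 were higher in car and 18 lower; with scaling by the total count 13 were higher and 8 lower. ENSOMYG00000013240 differed between them by a log2 fold change of 1.74 (edgeR FDR 1.18e-09), with 213.5 ± 162 CPM in car wells and 54.0 ± 40.5 CPM in ampa wells (SD, n = 9 each). Against DMSO this gene was called higher in these car wells (0.86, edgeR FDR 0.00153) and lower in these ampa wells (-0.88, edgeR FDR 0.0228). ENSOMYG00000009413 differed by -1.25 (edgeR FDR 1.11e-26), with 840 ± 165 CPM in car wells and 2644 ± 2750 CPM in ampa wells, of which the wells at position F09 had 4207 to 8851 CPM. No dose was matched between the 2 chemicals.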

How the results depend on the processing

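Counts of called genes moved by more than 1.5 times in these cases, the cause of which was not tested. Without the replicate block, conc 1, conc 2 and conc 3 against DMSO gave 5, 0 and 0 calls, conc 1 to conc 3 gave 11, conc 6 to conc 8 gave 2, conc 1 to conc 3 against conc 6 to conc 8 gave 0, car against ampa gave 3, ampa against DMSO gave 5 and the slope gave 1. DESeq2 gave 16 at conc 2, 18 at conc 3, 19 over conc 6 to conc 8, 3 for conc 1 to conc 3 against conc 6 to conc 8, 2 for ampa against DMSO and 0 for the slope. With no low-count filter there were 10 calls at conc 2, 0 for conc 1 to conc 3 against conc 6 to conc 8 and 1 for the slope.

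Leaving out 1 plate at a time gave 1 to 8 calls at conc 2, 5 to 11 at conc 3, 9 to 24 over conc 6 to conc 8, 0 to 1 for conc 1 to conc 3 against conc 6 to conc 8, 8 to 11 for car against ampa, 3 to 31 for ampa against DMSO and 0 to 1 for the slope. It gave 14 to 21 at conc 1 and 18 to 20 over conc 1 to conc 3. The highest count of conc 6 to conc 8, 24, and of ampa, 31, came without plate 3, and the lowest of ampa, 3, without plate 1.

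At single concentrations below conc 3, leaving out 1 plate gave 4 to 12 calls at conc 8, 8 to 14 at conc 7, 2 to 9 at conc 6, 6 to 7 at conc 5 and 0 to 3 at conc 4. Conc 8 had 4 without plate 1 and 4 without plate 2, conc 7 had 8 without plate 2, and conc 6 had 2 without plate 1, 3 without plate 2 and 9 without plate 3. Without the 4 most counted IDs there were 7, 4, 5, 4 and 0 calls from conc 8 to conc 4, and with no low-count filter 12, 28, 11, 8 and 6.

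Without the 4 most counted IDs, which removes 4 calls by construction, conc 1, conc 2 and conc 3 gave 11, 0 and 2 calls and conc 6 to conc 8 gave 5. Thinned wells, with 1022 genes tested, gave 11 at conc 1, 10 over conc 1 to conc 3 and 0 for conc 1 to conc 3 against conc 6 to conc 8. Wells summed by plate gave 9 over conc 1 to conc 3 and 5 for conc 1 to conc 3 against conc 6 to conc 8. Scaling by the total count gave 69, 17 and 28 at conc 1, conc 2 and conc 3 (64, 15 and 22 of them higher in car), 153 over conc 1 to conc 3, 112 over conc 6 to conc 8 (105 higher) and 1 for the slope. The same scaling gave 21 calls for car against ampa, 13 higher and 8 lower, in place of 20 with 2 higher and 18 lower. The slope without conc 1 gave 1 call, and without conc 8 the slope of ENSOMYG00000014953 turned to 0.03.

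ENSOMYG00000036222, ENSOMYG00000000138, ENSOMYG00000002129, ENSOMYG00000002243 and ENSOMYG00000013240 kept their direction against DMSO in all alternatives in which they were tested. Depth limits what low genes can show: car wells of plate 1 had 42821 to 103424 counts, and ENSOMYG00000000138 had 6 counts at conc 3 there.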
